A study of Homo sapiens with 6 samples.

Results

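Expression of 10 regulators of the epithelial and mesenchymal states was examined in ovarian cancer cells with stable knockdown of cyclooxygenase-1 (COX-1). The genes were taken by symbol, without regard to their values, as the EMT-inducing transcription factors SNAI1, SNAI2, TWIST1, ZEB1 and ZEB2, the epithelial transcription factors GRHL2, OVOL1 and OVOL2, and the epithelial splicing regulators ESRP1 and ESRP2. Of the 34811 genes in the count table, 9 were rows for these symbols, and SNAI2 was not analysed here. OVCAR-3, the parental line, is an established human ovarian carcinoma line. OV3/SCR cells, in which COX-1 was wild-type, carried a scrambled shRNA on the pRS HuSH-29 plasmid, and OV3/COX1KD cells carried an shRNA against COX-1 on the same plasmid. Both were puromycin-selected stable transfectants grown in RPMI-1640 with serum. RNA-seq was performed on OV3/COX1KD clone #2 and OV3/SCR clone #1, with 3 passages grown independently for each. Each condition was therefore a single clone, so that knockdown and clone cannot be told apart, and p-values measured the spread between passages.

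Epithelial-mesenchymal transition (EMT) is the program by which epithelial cells loosen their junctions and gain migratory properties. SNAI, ZEB and TWIST proteins are transcription factors that drive it, and SNAI and ZEB proteins repress junction genes such as CDH1 by binding E-box sequences. GRHL2 activates junction genes and opposes ZEB1, OVOL proteins repress mesenchymal regulators including ZEB1, and ESRP proteins bind RNA and direct the epithelial pattern of exon choice. OVCAR-3 cells grow as an epithelial line.

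The comparison asked whether COX-1 knockdown was accompanied by other mRNA levels of these regulators. The 6 libraries held between 25291505 and 27391538 reads counted on genes. At this depth 3 counts, the smallest level taken as detectable in a library, corresponded to a level between 0.113 and 0.120 CPM (reads of a gene per 1000000 reads of its library, scaled by edgeR's TMM factors). Such limits and the counting intervals below cover counting error only, not the spread between passages. PCR copies are not independent molecules, so even the counting error may be larger than given. PTGS1, the COX-1 gene, was lower in each OV3/COX1KD library than in each OV3/SCR library, with 73.3% of the control mRNA level (log2 fold change -0.45, edgeR FDR, the p-value adjusted over all tested genes, = 1.3e-06). The study also reports strongly lowered COX-1 protein by Western blot and less prostaglandin made from arachidonic acid in OV3/COX1KD cells. Protein and prostaglandin were not examined here. Of 12 ovarian carcinoma markers such as PAX8, MUC16 and EPCAM all were detected and tested. Their summed level was 5877 to 5939 CPM in OV3/SCR and 7599 to 7801 CPM in OV3/COX1KD libraries. This sum includes abundant genes that are also in the list of epithelial targets below. Their mean CPM in OV3/SCR and OV3/COX1KD cells was 1502 and 2360 for KRT8, 460 and 775 for KRT18, and 941 and 1177 for KRT19. It was 439 and 581 for EPCAM, 168 and 303 for CDH1, and 1041 and 942 for KRT7, which was lower.

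ESRP1 and GRHL2 rose in OV3/COX1KD cells, whereas OVOL2, ESRP2 and SNAI1 did not pass an FDR of 0.01 and the other 4 genes were too scarce to test. Of the 5 tested genes 2 were called at an FDR under 0.01, against 47.9% of all 17309 tested genes. Among all tested genes 25.8% were called higher and 22.1% lower in OV3/COX1KD cells. With a log2 fold change beyond 0.5 added to the threshold, ESRP1 alone of the regulators remained called, against 19.9% of all tested genes, or 9.87% in its direction. The 3 OV3/COX1KD levels lay apart from the 3 OV3/SCR levels for ESRP1, GRHL2 and SNAI1, which held for 63.2% of all tested genes (32.5% higher and 30.7% lower in OV3/COX1KD cells).

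**Figure D1:**
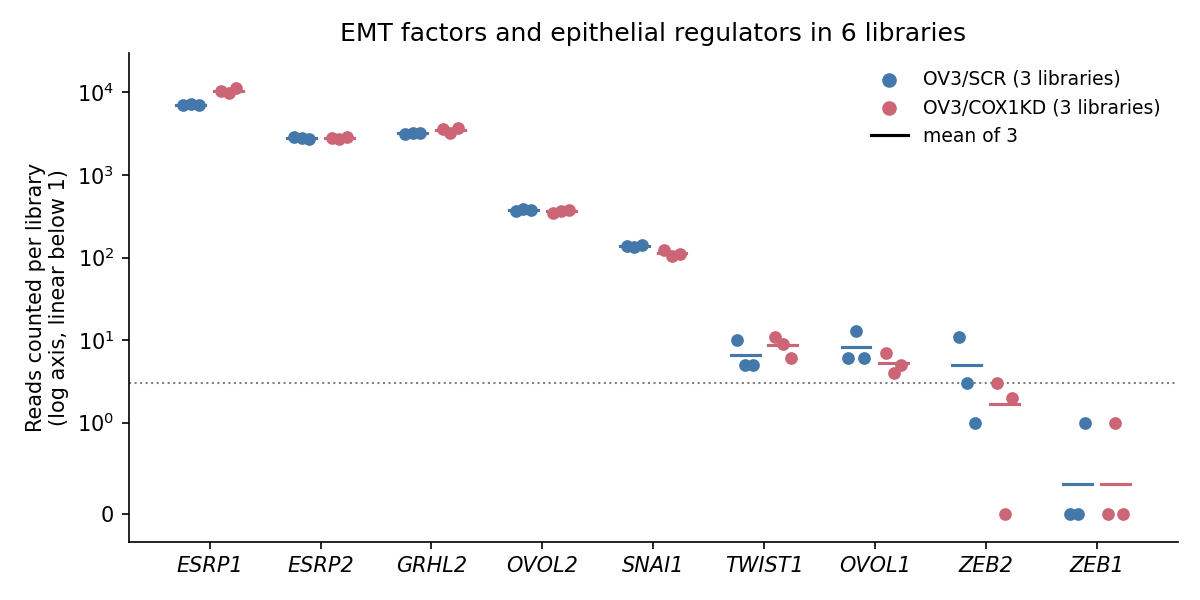
Reads counted per library (vertical log axis, linear below 1) for the 9 genes in order of their level per transcript length in OV3/SCR cells; points are libraries, horizontal bars the means of 3, and the dotted line is 3 counts. ESRP1, ESRP2, GRHL2, OVOL2 and SNAI1 lie above 100 counts in every library, and TWIST1, OVOL1, ZEB2 and ZEB1 lie at 13 counts or fewer.

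The EMT-inducing factors were represented almost wholly by SNAI1, which encodes the zinc-finger repressor Snail. SNAI1 (ENSG00000124216, chr20:48599517-48605423, plus strand, GRCh37) was counted 139, 135 and 142 times in OV3/SCR and 124, 104 and 109 times in OV3/COX1KD cells. All 3 OV3/COX1KD libraries were below all 3 OV3/SCR libraries, with OV3/COX1KD replicate 1 the nearest to the control. The level was 5.30 ± 0.171 CPM (SD, n = 3) in OV3/SCR and 4.39 ± 0.466 CPM (SD, n = 3) in OV3/COX1KD cells. The log2 fold change of -0.27 (95% interval -0.51 to -0.030), a level of 82.8% of the control, did not pass the threshold (edgeR FDR = 0.0501). By DESeq2 the FDR was 0.134, and over all settings tried the FDR lay between 0.013 and 0.16. The coefficient of variation between passages was 3.24% in OV3/SCR and 10.6% in OV3/COX1KD cells, where counting error alone gives 8.49% and 9.44%. The median log2 fold change of its 27 tested neighbours within 2 Mb was 0.13, and SNAI1 lay below 23 of these.

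ZEB1, the zinc-finger and homeobox repressor of CDH1, was at the limit of detection. ZEB1 (ENSG00000148516, chr10:31607424-31818742) was counted 0, 0 and 1 times in OV3/SCR and 0, 1 and 0 times in OV3/COX1KD cells. The pooled counts allowed at most 0.0728 CPM in OV3/SCR and 0.0705 CPM in OV3/COX1KD cells. These were upper 95% exact Poisson bounds over summed totals, here without TMM factors, and no fold change is given. The sequencing kit does not mark strand, so reads of the antisense transcript ZEB1-AS1, which overlaps 4.58% of the ZEB1 exon length, could be counted on either gene. ZEB2 (ENSG00000169554, chr2:145121931-145278624) had 11, 3 and 1 counts in OV3/SCR and 3, 0 and 2 in OV3/COX1KD libraries. Only OV3/SCR replicate 1 was above 3 counts, and the ranges of the conditions overlapped. A pseudogene on the same strand overlaps 11.3% of the ZEB2 exon length and the antisense ZEB2-AS1 4.97%, so these few reads are of uncertain origin. The ratio of pooled ZEB2 counts per total was 0.323, with a counting interval of 0.0918 to 0.934 that excludes 1 but does not cover the spread between libraries, and 11 of the 15 OV3/SCR counts came from replicate 1. An edgeR fit that kept all low counts gave ZEB2 an FDR of 0.171 (unadjusted p = 0.0624), past no threshold used here. A difference in ZEB1 mRNA was not detectable at this depth.

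TWIST1, which encodes a basic helix-loop-helix factor, had 10, 5 and 5 counts in OV3/SCR and 11, 9 and 6 in OV3/COX1KD libraries (ENSG00000122691, chr7:19060614-19157259). The conditions overlapped, and the ratio of pooled counts per total was 1.26 with a counting interval of 0.676 to 2.38. Its FDR was 0.544 in the edgeR fit that kept low counts. An antisense long noncoding RNA overlaps 7.06% of the TWIST1 exon length, so some of these reads may be of other origin. Summed per transcript length, the 4 measured EMT-inducing factors reached 3.28 ± 0.101 RPKM (CPM per kilobase of the canonical transcript; SD, n = 3) in OV3/SCR and 2.79 ± 0.333 RPKM in OV3/COX1KD cells. SNAI1 made up 91.1% to 96.1% of that sum across the libraries.

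Among the splicing regulators, ESRP1 rose and ESRP2 was not called. ESRP1 (ENSG00000104413, chr8:95653302-95719694, plus strand) was counted 7095, 7165 and 6997 times in OV3/SCR and 10303, 9856 and 11202 times in OV3/COX1KD cells. The OV3/COX1KD libraries were all higher, and the gap between the conditions was wider than the spread within either. Levels were 270.6 ± 4.40 CPM (SD, n = 3) in OV3/SCR and 407.7 ± 13.6 CPM (SD, n = 3) in OV3/COX1KD cells. This was a 1.51-fold difference (95% interval 1.44 to 1.58; log2 fold change 0.59, standard error 0.031, edgeR FDR = 3.3e-12). The estimate stayed between 0.51 and 0.62 over all settings, and 90.5% of all tested genes had a lower log2 fold change. In bulk RNA, a larger share of cells making a transcript and more of it per cell cannot be told apart.

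ESRP2 (ENSG00000103067, chr16:68262936-68272005, minus strand), the paralogue with overlapping exon targets, had 2845, 2835 and 2756 counts in OV3/SCR and 2788, 2692 and 2896 in OV3/COX1KD libraries. Its level was 107 ± 1.23 CPM (SD, n = 3) against 109 ± 1.69 CPM (SD, n = 3), and the libraries of the conditions overlapped. The log2 fold change was 0.021 (95% interval -0.047 to 0.089, edgeR FDR = 0.597), and total count scaling turned its sign to -0.057. The interval excludes a change as large as that of ESRP1. The ratio of ESRP1 to ESRP2 counts, which needs no scaling between libraries, was 2.49, 2.53 and 2.54 in OV3/SCR and 3.70, 3.66 and 3.87 in OV3/COX1KD cells. Every OV3/COX1KD library had the higher ratio (exact permutation test, two-sided, p = 0.1, the smallest that 3 against 3 allows). In both conditions ESRP1 was the more abundant paralogue per transcript length.

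GRHL2, a grainyhead-family activator of epithelial junction genes, rose by a small amount. GRHL2 (ENSG00000083307, chr8:102504667-102681954, plus strand) was counted 3097, 3257 and 3265 times in OV3/SCR and 3588, 3263 and 3745 times in OV3/COX1KD cells. On the CPM scale OV3/COX1KD replicate 2, at 130 CPM, lay close to OV3/SCR replicate 3, at 126 CPM, and the conditions did not overlap. The level was 122 ± 5.50 CPM (SD, n = 3) in OV3/SCR and 138 ± 6.63 CPM (SD, n = 3) in OV3/COX1KD cells, a 1.13-fold difference (log2 fold change 0.17, standard error 0.040, edgeR FDR = 0.00111). The call was lost with total count scaling (0.092, edgeR FDR = 0.0418) and on leaving out replicate 1 of OV3/SCR (0.14, edgeR FDR = 0.0143) or replicate 1 of OV3/COX1KD (0.15, edgeR FDR = 0.01002). The ratio of GRHL2 to OVOL2 counts was 8.59 ± 0.150 in OV3/SCR and 9.68 ± 0.738 in OV3/COX1KD cells (SD, n = 3; exact permutation p = 0.1). The ESRP1 to GRHL2 ratio was 2.21 ± 0.0746 in OV3/SCR and 2.96 ± 0.0789 in OV3/COX1KD cells, with no overlap of the libraries (SD, n = 3; exact permutation p = 0.1).

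The OVOL genes encode zinc-finger repressors that keep cells epithelial. OVOL2 (ENSG00000125850, chr20:17937623-18039832, minus strand) had 362, 385 and 373 counts in OV3/SCR and 348, 368 and 380 in OV3/COX1KD libraries, and the conditions overlapped throughout. Its level was 14.3 ± 0.615 CPM in OV3/SCR and 14.3 ± 0.429 CPM in OV3/COX1KD cells (SD, n = 3). The log2 fold change of 6.8e-05 had a 95% interval of -0.14 to 0.14 (edgeR FDR = 0.999). OVOL1 (ENSG00000172818, chr11:65554534-65564685) had 6, 13 and 6 counts against 7, 4 and 5. Its pooled ratio was 0.620, with a counting interval of 0.309 to 1.21, and the FDR was 0.470 in the edgeR fit that kept low counts. An antisense long noncoding RNA overlaps 27.3% of the OVOL1 exon length, so these few reads are of uncertain origin.

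**Figure D2:**
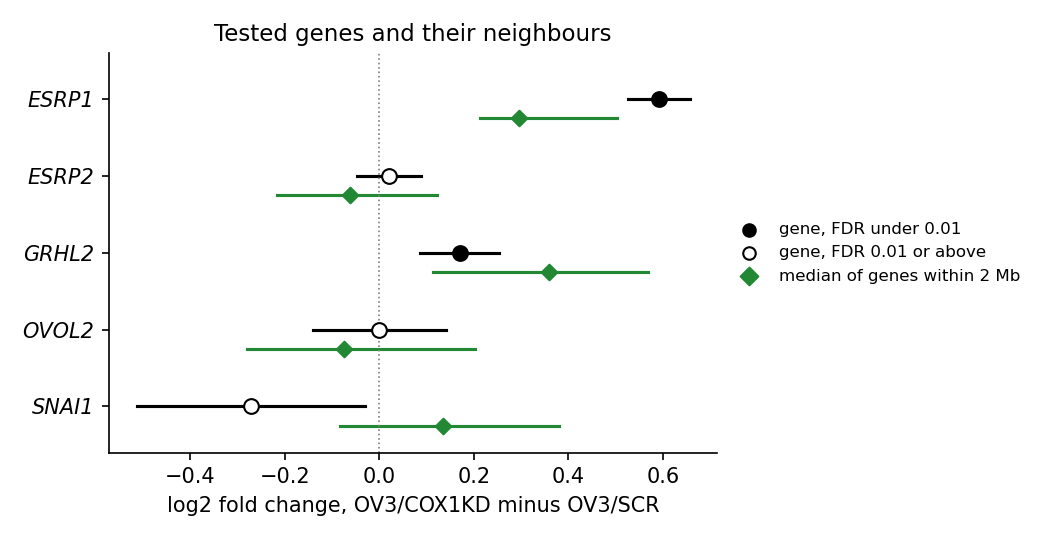
Fitted log2 fold changes of the 5 tested genes with 95% intervals (black), above the median and interquartile range of the genes within 2 Mb of each (green). ESRP1, at 0.59, lies above its neighbours' median of 0.29, GRHL2, at 0.17, lies below its neighbours' median of 0.36, and the intervals of ESRP2 and OVOL2 include 0.

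ESRP1 and GRHL2 lie 6.85 Mb apart on the long arm of chromosome 8, and most of the genes around them were also higher in OV3/COX1KD cells. Of the 21 tested neighbours of ESRP1 within 2 Mb whose mean log2 CPM was 1 or more, 14 were called higher and none lower, and their median log2 fold change was 0.29. ESRP1 exceeded that median by 0.30, and 3 neighbours exceeded ESRP1. Around GRHL2 15 of 20 neighbours were called higher and 2 lower. Their median was 0.36, and GRHL2 lay 0.19 below it. Between the genes, 27 of 34 were called higher and 3 lower, with a median of 0.41. The chromosome 8 median of 0.16 (460 genes at that abundance) was the highest of any autosome. At the same abundance the other autosomes lay between -0.042 (chromosome 19) and 0.080 (chromosome 9). Over all tested genes, with no such limit on abundance, the median was -0.0087, and 25.8% were called higher and 22.1% lower. The shares called at the same abundance are not given here. The part of this regional difference in the levels of ESRP1 and GRHL2 was not tested. Around OVOL2 the median was -0.075 (19 genes) and around ESRP2 -0.062 (75 genes).

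**Figure D3:**
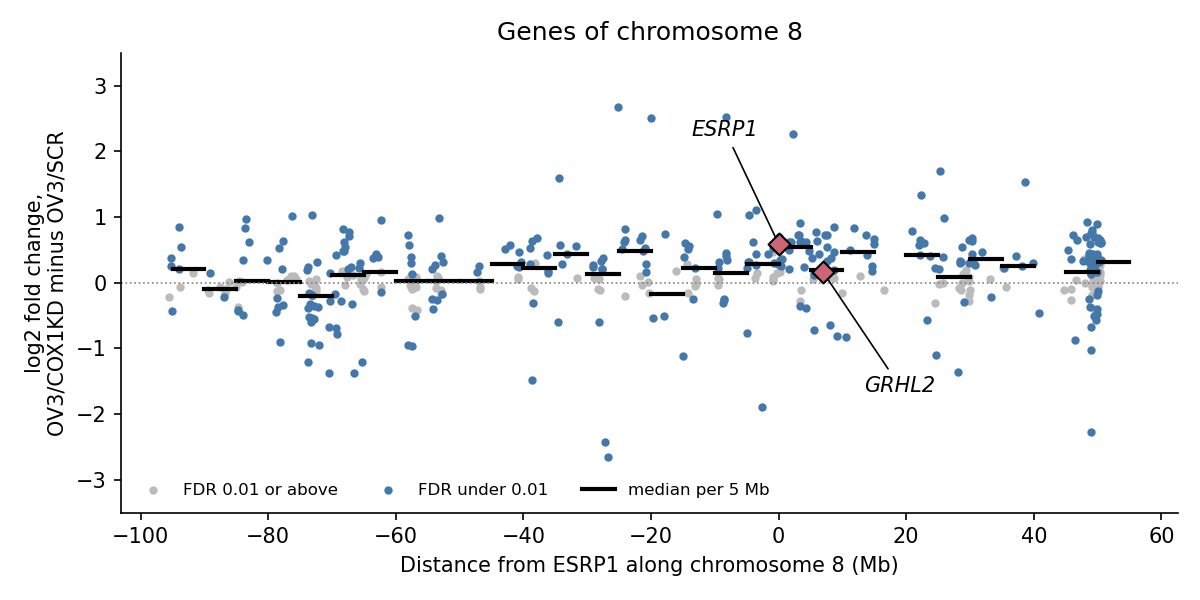
Log2 fold change of each tested gene of chromosome 8 whose mean log2 CPM was 1 or more, against its distance from ESRP1 in Mb; black lines are medians of 5 Mb bins with at least 5 genes. The medians lie above 0 in 25 of 28 bins drawn, and ESRP1 and GRHL2 lie within a stretch of positive medians.

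Per transcript length, the order of levels in OV3/SCR cells was ESRP1 (71.8 RPKM), ESRP2 (31.3), GRHL2 (23.4), OVOL2 (9.01), SNAI1 (3.11), TWIST1 (0.156), OVOL1 (0.107), ZEB2 (0.0204) and ZEB1 (0.00217). The same order held in OV3/COX1KD cells, from 108 RPKM for ESRP1 to 0.00224 RPKM for ZEB1. Neighbours from ESRP1 to TWIST1 in this order did not overlap between libraries of a condition. TWIST1 and OVOL1 overlapped in OV3/SCR libraries (0.118 to 0.230 and 0.0753 to 0.167 RPKM), and ZEB2 and ZEB1 overlapped in both conditions. ESRP1 stood at the percentile 95.6 of all tested genes with a length, ESRP2 at 86.1, GRHL2 at 82.4, OVOL2 at 62.0 and SNAI1 at 39.5. Summed per length, the splicing regulators reached 103.1 ± 1.48 RPKM in OV3/SCR and 140 ± 3.88 RPKM in OV3/COX1KD cells, and the epithelial transcription factors 32.5 ± 1.44 and 35.4 ± 1.04 RPKM (SD, n = 3).

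The counts of ESRP1 and GRHL2 relative to those of SNAI1 lay apart between the conditions. ESRP1 was counted 51.1 ± 1.90 times as often as SNAI1 in OV3/SCR and 93.5 ± 9.90 times in OV3/COX1KD cells (SD, n = 3), with no overlap. The GRHL2 to SNAI1 ratio was 23.1 ± 0.931 and 31.6 ± 2.72 (SD, n = 3), also with no overlap (exact permutation p = 0.1 for both ratios). The OVOL2 to SNAI1 ratio was 2.69 ± 0.137 and 3.28 ± 0.408 (SD, n = 3), and its libraries overlapped (exact permutation p = 0.2). In all 9 count ratios were compared by exact permutation tests, and after Benjamini-Hochberg adjustment the smallest p was 0.1125.

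Among the paralogues of these genes, GRHL3 and SNAI3 rose. GRHL3, the grainyhead paralogue known for its role in epidermal barrier formation, had 44, 43 and 49 counts in OV3/SCR and 218, 233 and 263 in OV3/COX1KD libraries, a 5.35-fold rise (log2 fold change 2.42, standard error 0.12, edgeR FDR = 2.0e-12). Its level rose from 0.611 to 3.27 RPKM and stayed below that of GRHL2, at 23.4 and 26.3 RPKM. The GRHL3 to GRHL2 count ratio was 0.0141 ± 0.000905 in OV3/SCR and 0.0675 ± 0.00584 in OV3/COX1KD cells (SD, n = 3; exact permutation p = 0.1). GRHL3 lies on chromosome 1, where the median log2 fold change of 43 neighbours within 2 Mb was 0.11. GRHL1 had a log2 fold change of -0.096 (edgeR FDR = 0.127), which passed the threshold with total count scaling (-0.17, edgeR FDR = 0.00881).

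SNAI3, a SNAI-family zinc-finger gene, had 12, 6 and 7 counts in OV3/SCR and 24, 26 and 23 in OV3/COX1KD libraries. It rose by 1.56 on the log2 scale (standard error 0.32, edgeR FDR = 3.1e-04) and remained scarce, at 0.547 RPKM against 2.57 RPKM for SNAI1. Reads of SNAI3-AS1, which overlaps 10.2% of the SNAI3 exon length, cannot be told apart without strand. OVOL3 had 11, 9 and 13 counts against 4, 5 and 2, with no overlap, and did not pass the filter (edgeR FDR without the filter 0.0134). SCRT1 had between 2 and 7 counts per library. Of the more distant grainyhead relatives, TFCP2 fell (log2 fold change -0.22, edgeR FDR = 0.00123, and 0.0138 without OV3/SCR replicate 3), and TFCP2L1 (-0.33, edgeR FDR = 0.0302) and UBP1 (0.029, edgeR FDR = 0.447) were not called. In all 2 of 6 tested paralogues rose and 1 fell, so that 3 of 6 were called where 47.9% of all tested genes were.

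**Figure D4:**
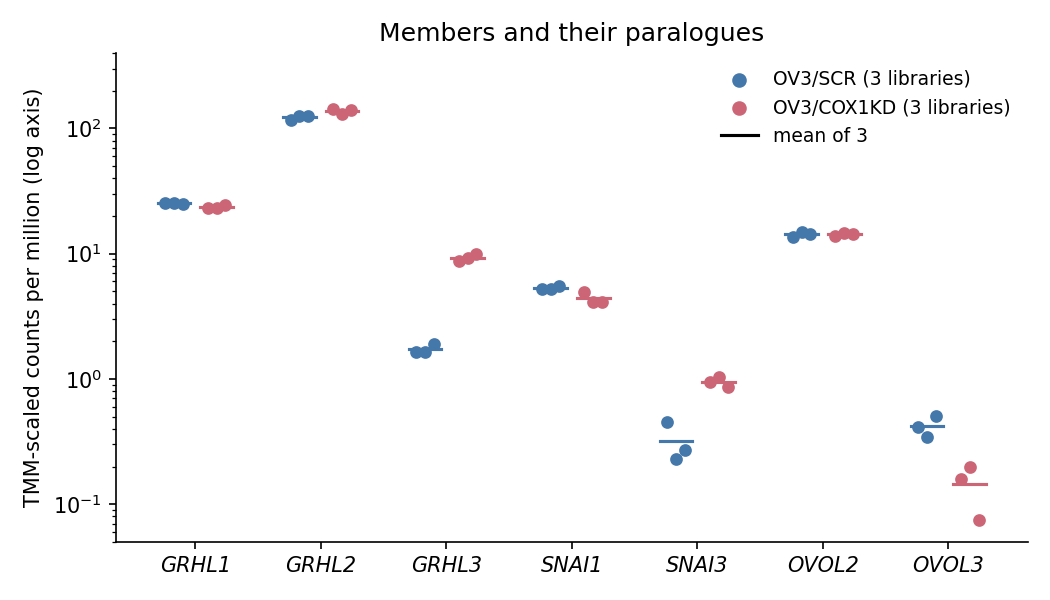
Level per library in TMM-scaled CPM (log axis) of GRHL, SNAI and OVOL genes; points are libraries and bars the means of 3. GRHL3 and SNAI3 are higher in all 3 OV3/COX1KD libraries, and the scale is not corrected for transcript length.

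Genes of the epithelial and mesenchymal states were examined as lists, and whether these factors act on each gene was not tested. The list of epithelial targets of SNAI, ZEB, GRHL and OVOL proteins includes junction, polarity and keratin genes. In it 20 of 30 tested genes rose and 4 fell (80.0% called), where 25.8% of all tested genes were higher and 22.1% lower. The median log2 fold change was 0.41 against -0.0087 for all tested genes. The claudins CLDN3 (1.80) and CLDN4 (1.12) and the membrane serine protease PRSS8 (0.91) rose most. CDH1, which encodes E-cadherin, was 1.81-fold higher (log2 fold change 0.85, edgeR FDR = 5.9e-14). The falls were smaller, with the mucin MUC1 (-0.54), the polarity gene LLGL2 (-0.19) and the trafficking GTPase RAB25 (-0.18) the furthest down. LLGL2 was not called by DESeq2 (FDR = 0.0115), in the edgeR fit that kept low counts (FDR = 0.0107), or without replicate 1 of OV3/SCR (0.0320) or replicate 1 (0.0158) or 3 (0.0240) of OV3/COX1KD. SNAI1, CDH1, EPCAM, OCLN, FN1 and CDH2 were named by the study from these same libraries, so their directions are not independent of it. The study lists SNAI1 among the EMT regulators lowered by the knockdown. Here SNAI1 lay lower in every OV3/COX1KD library, but neither edgeR nor DESeq2 called it. Outside these libraries, the study measured SNAI1, CDH1, CDH2 and FN1 by QPCR and E-cadherin by Western blot. It also reports experiments in other ovarian cancer lines. Those measurements were not examined here.

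Upstream sequence was available for 15 of the epithelial targets (23 windows of 250 bases before a RefSeq start, GRCh38.p14). The E-box letters CACCTG, or CAGGTG on the other strand, were found in 12 of these 23 windows (52.2%), against 17.5% of all 35116 windows. The list was chosen as epithelial targets of SNAI, ZEB, GRHL and OVOL proteins, so this share is not independent of the choice of genes. The grainyhead letters AACCNGTT, or AACNGGTT on the other strand, were found in 1 window, that of CGN, against 1.49% of all windows. The upstream windows with the most E-box matches, of CRB3 and CLDN7, and that of CGN are shown 5′ to 3′ so that windows of a gene that rose and of genes that were not called can be compared, with the matched letters in capitals.
CRB3, chr19:6464021-6464270, plus strand: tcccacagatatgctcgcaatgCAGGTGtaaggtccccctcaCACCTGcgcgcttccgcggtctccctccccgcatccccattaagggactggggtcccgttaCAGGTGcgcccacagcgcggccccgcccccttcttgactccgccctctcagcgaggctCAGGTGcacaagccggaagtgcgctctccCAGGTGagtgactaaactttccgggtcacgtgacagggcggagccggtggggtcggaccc
CLDN7, chr17:7262479-7262728, minus strand: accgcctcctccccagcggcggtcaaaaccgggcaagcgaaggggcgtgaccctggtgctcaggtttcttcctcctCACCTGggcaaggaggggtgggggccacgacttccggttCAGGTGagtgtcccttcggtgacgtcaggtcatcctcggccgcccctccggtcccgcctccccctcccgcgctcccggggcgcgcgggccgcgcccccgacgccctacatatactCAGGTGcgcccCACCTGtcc
CGN, chr1:151511137-151511386, plus strand: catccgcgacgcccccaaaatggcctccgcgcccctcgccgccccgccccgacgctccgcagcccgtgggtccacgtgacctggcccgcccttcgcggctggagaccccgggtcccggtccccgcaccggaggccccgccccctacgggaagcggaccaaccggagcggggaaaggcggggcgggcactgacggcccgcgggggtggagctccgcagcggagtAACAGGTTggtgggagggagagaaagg

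Genes that rose and genes that were not called were found both with and without E-box matches. CRB3, a polarity gene with 5 E-box matches, had a log2 fold change of -0.041 (edgeR FDR = 0.681), whereas CLDN7, with 4 matches, rose by 0.66 on the log2 scale (edgeR FDR = 3.2e-12). CGN, which encodes the junction protein cingulin, had a log2 fold change of 0.0039 (edgeR FDR = 0.936). Of the 10 genes with an E-box match 5 rose, 2 fell and 3 were not called. Of the 5 without a match 4 rose and 1 was not called. In the whole list 20 of 30 tested genes rose and 4 fell, and among all tested genes 25.8% were higher and 22.1% lower. CDH1 was not among the genes with an upstream window. CLDN3 and CLDN4, which rose most, had neither motif in these windows.

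Mesenchymal genes fell more often than they rose. Of 25 tested genes 12 fell and 3 rose (60.0% called), where 22.1% of all tested genes were lower and 25.8% higher, and the median log2 fold change was -0.51. Among genes whose mean log2 CPM was 1 or more, the matrix glycoprotein FN1 (-3.21), N-cadherin CDH2 (-2.13) and the microfibril gene FBN1 (-1.60) fell most. The collagen VI genes COL6A2 (2.22) and COL6A1 (1.17) rose, as did CTGF (0.15, not called with total count scaling, edgeR FDR = 0.0549), so the list moved in both directions. VIM, the intermediate filament gene of mesenchymal cells, was scarce, with 29, 32 and 20 counts against 18, 21 and 22 (log2 fold change -0.38, 95% interval of the fold 0.531 to 1.12, edgeR FDR = 0.220). Fibroblast markers summed to 12.8 to 13.7 CPM in OV3/SCR and 8.71 to 9.62 CPM in OV3/COX1KD libraries, with 4 of 9 tested and LUM and THY1 at or under 3 counts in every library. Mesothelial markers summed to 16.3 to 18.3 CPM in OV3/SCR and 30.1 to 31.9 CPM in OV3/COX1KD libraries. Leukocyte markers lay between 0.638 and 1.65 CPM and endothelial markers between 2.46 and 3.57 CPM in any library. The part of these markers in the results was not tested.

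**Figure D5:**
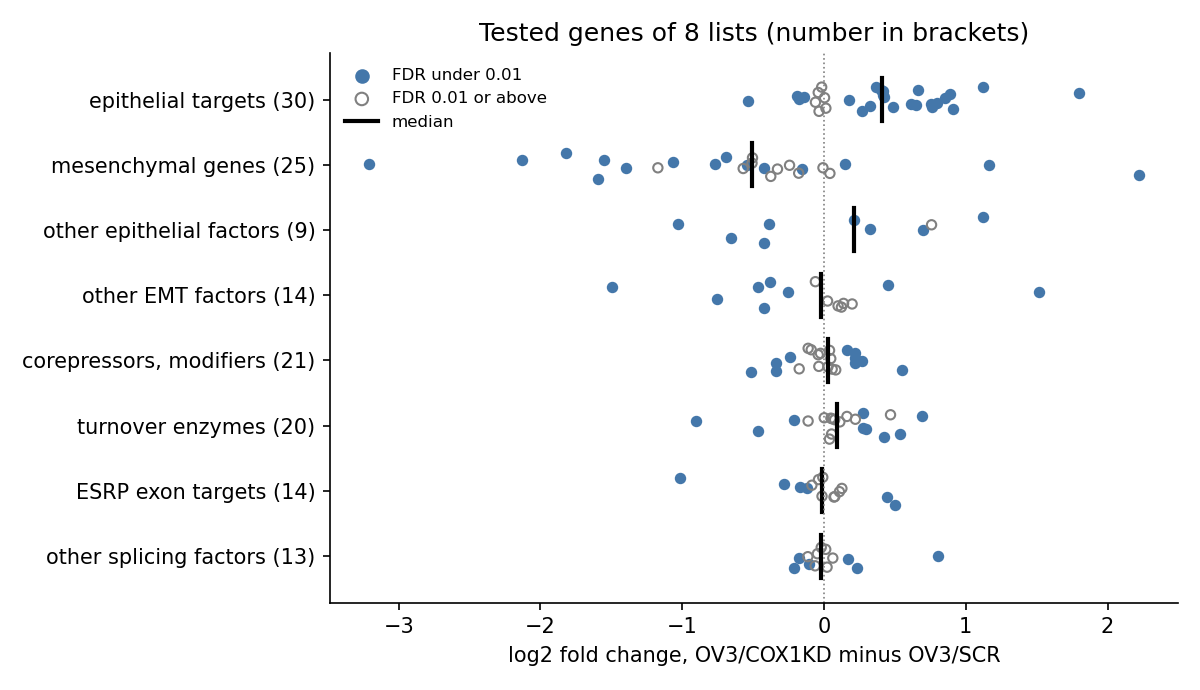
Log2 fold change (horizontal axis) of every tested gene of the lists of targets, other transcription factors, cofactors, turnover enzymes and splicing genes; filled points passed an FDR of 0.01 and black bars are medians. The medians are 0.41 for epithelial targets and -0.51 for mesenchymal genes, and within 0.1 of 0 for the cofactor, turnover and splicing lists.

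Of 14 tested genes listed as EMT-inducing factors outside the named families, 2 rose and 6 fell, with a median of -0.018. Of the list 57.1% were called, against 47.9% of all tested genes. The list also held ID1, ID2 and ID3, which are inhibitors rather than inducers and were among the 6 that fell. HMGA2, a chromatin protein that promotes EMT, fell by 1.49 on the log2 scale, and ID3 (-0.76) and ID1 (-0.47), inhibitors of basic helix-loop-helix factors, also fell. The forkhead gene FOXQ1 (1.52) and SOX9 (0.45) rose. Of 9 tested epithelial factors outside the named families 4 rose and 4 fell (88.9% called), with a median of 0.21. FOXA1 (1.12) and the ETS factor EHF (0.70) rose, and GATA6 (-0.66), KLF5 (-0.43) and KLF4 (-0.39) fell. FOXA2 fell furthest (-1.03, edgeR FDR = 7.1e-05), at a mean log2 CPM of 0.977, just under the limit of 1 used for naming genes.

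Partners of the EMT-inducing factors were called in shares near the 47.9% of all tested genes. Among corepressors and chromatin modifiers used by SNAI and ZEB, 6 of 21 rose and 4 fell (47.6% called), with a median of 0.027. MTA3, a component of a deacetylase complex that represses SNAI1, rose by 0.55 on the log2 scale, and CTBP2 (0.27) and SIN3A (0.22) rose less. SIN3A was not called with total count scaling (edgeR FDR = 0.0166) or without replicate 1 of OV3/COX1KD (0.0112) or OV3/SCR (0.0146). AJUBA (-0.52), a LIM-domain corepressor of SNAI1, CTBP1 (-0.34) and DNMT1 (-0.34) fell. Of 20 tested enzymes that modify or degrade SNAI, TWIST and ZEB proteins 6 rose and 3 fell (45.0% called), with a median of 0.093. PAK1 (0.69), a kinase of SNAI1, the ubiquitin ligase MDM2 (0.54) and the phosphatase CTDSP2 (0.42) rose, and FBXW7 (-0.47) and PSMD14 (-0.21) fell. The scarcer PRKD1 fell furthest (-0.91, edgeR FDR = 9.6e-04), at a mean log2 CPM of 0.74, under the limit of 1 used for naming genes.

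Genes whose exons ESRP proteins are known to control were described at the level of whole genes only, since gene counts do not measure exon choice. Of 14 tested genes 2 rose and 4 fell (42.9% called, against 47.9% of all tested genes), with a median log2 fold change of -0.011. FGFR2 (0.45), the receptor gene with an epithelial isoform, rose, and CD44 (-1.01), ARHGEF11 (-0.28) and ENAH (-0.17) fell. Of 13 other splicing factors tied to either state 3 rose and 3 fell (46.2% called, near that background), with a median of -0.020. RBM47, an RNA-binding protein of epithelial cells, rose by 0.80 on the log2 scale, KHDRBS1 by 0.23 and RBM38 by 0.17, the last not called with total count scaling (edgeR FDR = 0.0297). AKAP8 (-0.21), MBNL1 (-0.18) and CELF1 (-0.11) fell. AKAP8 lost its call without replicate 1 (edgeR FDR = 0.0466) or 3 (0.0112) of OV3/COX1KD or replicate 2 (0.0334) or 3 (0.0351) of OV3/SCR. CELF1 lost its call without the same libraries (0.0197, 0.0116, 0.0226 and 0.0431) and in the fit that kept low counts (0.0496). MIR141, a microRNA row of the family that represses ZEB1 and ZEB2, had 0, 2 and 2 counts in OV3/SCR and 2, 1 and 0 in OV3/COX1KD libraries, and this kind of library does not measure mature microRNAs. MIR205HG, the host transcript of another such microRNA, had a log2 fold change of 0.22 (edgeR FDR = 0.178).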

How the data were processed

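RNA-seq was performed on 3 passages per condition. The authors aligned reads with TopHat2 (version 2.0 in the submitters' processing notes) to hg19, counted them by gene with HTSeq and deposited the counts without scaling. The annotation and strand setting of the counting are not given in the sources used here. Counts were analysed in edgeR 4.0.16 (R 4.3.3), with TMM factors, filterByExpr (17309 genes kept), glmQLFit and glmQLFTest on condition alone. P-values were adjusted by Benjamini-Hochberg over the kept genes and called at FDR under 0.01. The dispersion of 0.00103 (coefficient of variation 3.21%) describes passages, not clones. Libraries of a condition differed by more than sampling noise (chi-square per degree of freedom 2.04 to 7.94).

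Regulators, lists, motifs and tests were chosen with earlier results of these data known. All regulators and tested paralogues, PTGS1, CDH1 and VIM are named, and per list the 3 largest rises and 3 largest falls among called genes whose mean log2 CPM reached 1. Some genes that this rule names are not reported here. Lists were described without a set test. SNAI2, SCRT2, TWIST2, PRRX1, CDH11, POSTN, USP27X and 5 microRNA rows were not analysed here. Coordinates and transcript lengths came from GENCODE 44 on GRCh37, which is hg19 (33556 genes matched). Upstream windows came from RefSeq on GRCh38.p14, which among the regulators gave windows for ZEB1 and ZEB2 (not shown). Alternatives were RLE factors, total count scaling, no filter, 10 counts or more in all libraries, DESeq2 1.42.0, a replicate block, single libraries left out, a log2 fold change beyond 0.5, and neighbours within 5 Mb.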

Additional observations from a re-analysis of the deposited data

How the results depend on the processing

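Over 12 settings ESRP1 kept its direction and call (0.51 to 0.62), and SNAI1 kept its direction (-0.36 to -0.22) without a call. GRHL2 was 0.092 with total count scaling and 0.135 to 0.216 with single libraries left out. OVOL2 stayed within its interval and changed sign, at -0.0049 with DESeq2, -0.0047 with RLE factors, -0.017 with at least 10 counts, -0.078 with total count scaling and -0.032 to 0.028 with single libraries left out. ESRP2 was -0.057 with total count scaling and 0.011 to 0.038 with libraries left out. The causes were not tested. Total count scaling shifted all genes by -0.078, giving 3466 genes higher and 4978 lower in place of 4473 and 3820. Under it the number of called regulators fell from 2 to 1, as it did without replicate 1 of either condition (range 1 to 2 over left-out libraries), and called paralogues rose to 5. Under it the neighbour medians were 0.057 for SNAI1, 0.28 for GRHL2, -0.15 for OVOL2, 0.22 for ESRP1 and -0.14 for ESRP2. With TMM factors kept and neighbours taken within 5 Mb, the medians were 0.34 for ESRP1 and 0.0098 for OVOL2. With the limit of 0.5 on the log2 fold change, 3446 genes and 1 regulator were called. So were 3 genes of the list of other EMT-inducing factors (ID3 included), 4 other epithelial factors and 12 epithelial targets. The remaining lists had 2 corepressors, 3 turnover enzymes, 2 ESRP targets and 1 other splicing factor called. All these counts were fewer by construction.

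The labels speak of 3 replicate pairs but do not say that the replicate number marks them. Deviations of same-numbered libraries correlated at -0.0082, 0.046 and 0.027 across 12939 genes. With 3 libraries per condition these values cannot settle whether the libraries were paired. With the number as a replicate block 8233 genes were called, GRHL2 had an FDR of 0.00117 and ESRP1 of 7.2e-12, OVOL2 was -0.00013, and no call of a regulator changed. Depth limited ZEB1, ZEB2, TWIST1 and OVOL1, which the fit without a filter did not call.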
